A study of Mus musculus with 24 samples.

Results

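Among 9767 genes with a deposited expression value, 59 were higher in callosal projection neurons (CPNs) than in corticothalamic projection neurons (CThPNs) from the day before birth to adulthood. They were chosen by their expression: a gene is a member when its FPKM plus 1 in Cux2 CPNs is at least 2 times its FPKM plus 1 in Tle4 CThPNs at each of 6 ages, namely the embryonic day E18.5 and the postnatal days P1, P3, P7, P21 and P48. FPKM are fragments scaled to transcript length and to the number of mapped fragments. The ratio rule alone held for 89 genes, 0.911% of those listed, and 95 genes (0.973%) met the mirror rule with at least 2-fold higher values in Tle4 CThPNs at every age. Of the 89, the definition of the set leaves out 13 with short or unnamed transcript symbols, 11 on a named list of cortical layer and interneuron genes, and 6 of the potassium channel, cadherin, protocadherin, synaptotagmin, semaphorin, plexin and ephrin families. Several of the 13 were listed at 0 in Tle4 CThPNs at every age, such as Mir5105, which had at least 730186 FPKM in Cux2 CPNs. The source of that split between the classes was not tested. Because the class ratio selected the members, the class difference is described here and is not a finding of its own.

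The Cux2 CPNs came from Cux2-CreERT2:Ai14 mice and the Tle4 CThPNs from Tle4-2A-CreERT2:Ai14 mice, labelled as strain C57BL/6 and kept, by the methods, on a mixed C57BL/6J background, whose mothers received 4-hydroxytamoxifen during pregnancy. Neurons carrying the tdTomato reporter were sorted from somatosensory and motor cortex, and each of the 12 groups of class and age was sequenced as 2 libraries, 24 in all. A library holds RNA from pooled animals of both sexes. By the methods of the study, the Cux2-CreERT2 line labels some cortical interneurons in addition to projection neurons, though few among the sorted cells, and tissue at P21 and P48 was digested with more papain than tissue at younger ages, whereas the labels name 1 concentration. Recombination was induced late in gestation, so the label marks cells that used the Cux2 or Tle4 locus at that time. Only 1 value per gene and group was deposited, computed over both libraries. None of the differences below therefore has a replicate check, an error or a test, and the read depth behind each value is unknown because FPKM keep no read numbers.

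CPNs send their axons across the corpus callosum to the opposite hemisphere and lie mostly in the upper cortical layers. CThPNs lie in layer 6 and project to the thalamus. Groucho co-repressors such as Tle4 work with DNA-binding factors to silence genes. Axon guidance receptors, secreted growth factors and synaptic proteins that differ between such classes are thought to help each class find its targets and set its response to input.

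The labels were checked against marker genes. Of 39 listed callosal and upper layer markers, 12 passed the ratio rule for Cux2 CPNs and 1 passed the mirror rule. Of 22 listed corticothalamic and deep layer markers, 0 passed for Cux2 CPNs and 17 passed for Tle4 CThPNs. Cux2 itself, left out of the set by its definition, had 73.0, 68.4, 46.6, 36.4, 56.8 and 31.0 FPKM in Cux2 CPNs, from the youngest to the oldest age, against 4.65, 3.62, 2.14, 1.03, 1.34 and 0.608 FPKM in Tle4 CThPNs. Cux2 was thus higher in Cux2 CPNs at every age. Over the lists, 21 of the 39 callosal markers were higher in Cux2 CPNs at every age and 3 in Tle4 CThPNs (Nptx1, Dkk3 and Cdh13), while 20 of the 22 deep layer markers were higher in Tle4 CThPNs at every age and 1 in Cux2 CPNs (Foxp1). These exceptions are named after their values were seen. The members include 7 of the callosal and upper layer markers, among them Inhba, Ptn, Pvrl3, Unc5d, Hspb3 and Rasgrf2.

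Most members were low in CThPNs rather than absent from them. In Tle4 CThPNs, 38 of the 59 stayed below 10 FPKM at every age, 23 below 5 FPKM and 4 below 1 FPKM, against 8.48%, 2.91% and 0.799% of all listed genes. The ratio rule itself favours low values there. In Cux2 CPNs, 28 members had at least 10 FPKM at every age, as did 59.0% of all listed genes. Across ages, the lowest Cux2 CPN value lay above the highest Tle4 CThPN value for 43 members, a separation that 2.69% of all listed genes showed. For the remaining members the ranges of both classes overlapped once ages were mixed. The class difference, taken as log2(FPKM + 1) in Cux2 CPNs minus the same in Tle4 CThPNs and averaged over ages, had a median of 2.19 over the members and ran from 1.28 for Ppp1r16b, a phosphatase regulatory subunit, to 4.03 for Fam19a2. This scale understates the difference of genes with low values.

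**Figure D1:**
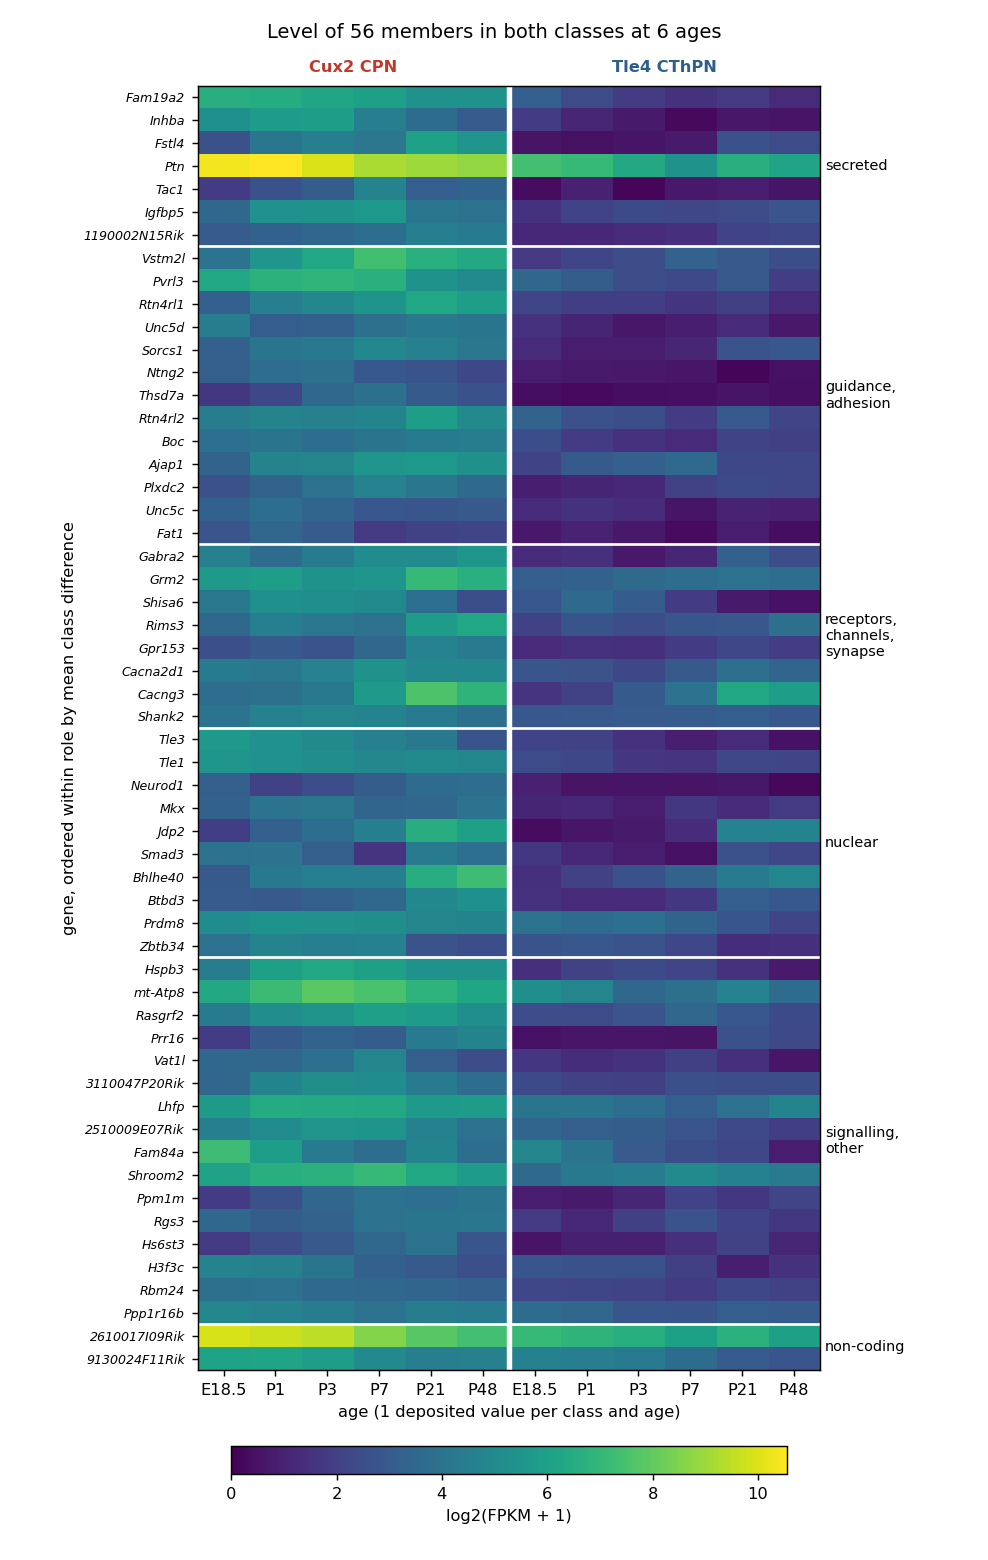
Each row is 1 of 56 members and each column 1 class and age; colour gives log2(FPKM + 1), with 1 deposited value per cell of the map and no error. Rows are grouped by role, and every row is brighter in the Cux2 CPN columns than in the Tle4 CThPN column of the same age, as the selection requires, with Ptn and 2610017I09Rik brightest.

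The size of the class difference changed with age. From the youngest to the oldest age, the median over the members was 1.83, 2.25, 2.35, 2.54, 2.13 and 2.22 in log2(FPKM + 1), while the median over all listed genes stayed between 0 and 0.09. P7 was the age of the largest difference for 18 members, P3 for 15 and P48 for 11. By the same signed difference, 17.5%, 9.41% and 13.9% of all listed genes were most toward Cux2 CPNs at these ages. At E18.5, 2 members differed most, and 28.2% of all listed genes were most toward Cux2 CPNs. For a gene higher in Tle4 CThPNs the signed value does not give the size of the gap. The shares of all listed genes are therefore not the same measure as those of the members. The smallest difference fell at E18.5 for 23 members, or 39.0%, while 17.2% of all listed genes had their lowest signed difference there. The gap was thus narrowest just before birth for the largest group of members. The rule sets only a lower bound at each age and does not fix at which age the difference is largest.

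Between E18.5 and P1 the gap opened on the Cux2 side. The median step of the members was 0.52 in Cux2 CPNs, with 42 of 59 higher at P1 (50.7% of all listed genes were), and -0.10 in Tle4 CThPNs. All listed genes had a median step of 0.01 in Cux2 CPNs and 0.06 in Tle4 CThPNs. Between P7 and P21 the members' median step was -0.13 in Cux2 CPNs and 0.37 in Tle4 CThPNs, where 39 members were higher at P21 than at P7. Over all listed genes these medians were 0.02 and 0.0047, and 50.2% were higher at P21 in Tle4 CThPNs. Markers of other cell types rose at the same step, in both classes for astrocyte, oligodendrocyte lineage, blood, and endothelial and mural markers. The summed FPKM of 10 listed astrocyte markers was 85.2, 112, 127, 155, 1297 and 891 in Tle4 CThPNs over the 6 ages, and 61.9, 67.0, 74.2, 96.1, 287 and 292 in Cux2 CPNs. The oligodendrocyte lineage sum went from 12.5 at P7 to 299 at P21 in Tle4 CThPNs and from 22.6 to 161 in Cux2 CPNs. The blood sum went from 11.5 to 174 and from 4.45 to 219 in the same order, and the endothelial and mural sum from 5.05 to 49.8 and from 5.77 to 7.58. The sum of 6 microglia markers went up from 36.4 at P7 to 100.3 at P21 in Tle4 CThPNs and down from 28.8 to 20.9 in Cux2 CPNs. The part of these cells in the members' step from P7 to P21 was not tested, and in bulk samples fewer cells of a type and less RNA per cell cannot be told apart.

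**Figure D2:**
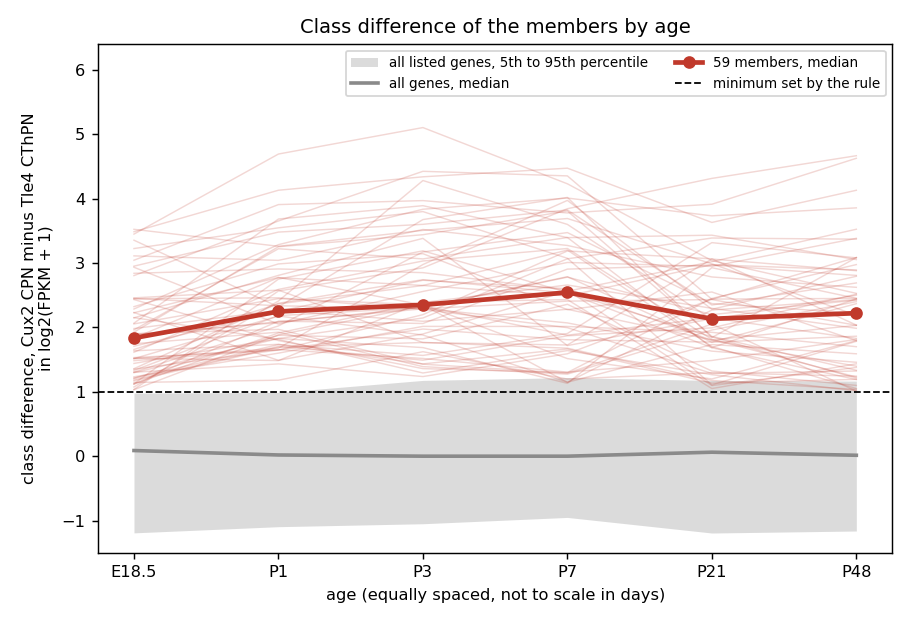
The y axis gives the class difference in log2(FPKM + 1), Cux2 CPNs minus Tle4 CThPNs, at 6 equally spaced ages; thin lines are the 59 members, the thick red line their median, the grey band the 5th to 95th percentile of all 9767 genes and the dashed line the minimum that the rule sets. The members' median was lowest at E18.5 (1.83) and highest at P7 (2.54).

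Secreted factors included the member with the largest difference. Fam19a2, now named Tafa2, encodes a small secreted peptide of the nervous system. Its FPKM at the 6 ages were 98.6, 92.5, 72.5, 63.3, 41.2 and 41.9 in Cux2 CPNs and 7.90, 4.34, 2.63, 1.90, 2.41 and 1.45 in Tle4 CThPNs. The ratio of the values plus 1 was never under 11.2 and reached 22.2 at P7, and the levels went down with age in both classes while the gap was kept. Inhba encodes the beta A chain of activin A, a ligand of the TGF-beta superfamily. It stood at 37.9, 55.4, 56.6, 21.8, 12.3 and 7.42 FPKM in Cux2 CPNs and at 2.56, 1.18, 0.676, 0.216, 0.618 and 0.459 FPKM in Tle4 CThPNs, the highest ratio among the members (34.4 at P3). Inhba peaked at P1 and P3, and its class difference was smaller late than early by more than 1, though the ratio was still 5.77 at P48.

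Ptn, the heparin-binding growth factor pleiotrophin, was the member with the highest level. Cux2 CPNs had 1303, 1489.9, 994, 587, 508 and 459 FPKM and Tle4 CThPNs had 168, 133, 81.0, 40.5, 99.0 and 70.3 FPKM. Even the lowest Cux2 value was above the highest Tle4 value, although CThPNs held an amount of Ptn that most members did not reach in CPNs. Fstl4, a follistatin-related secreted protein, moved the other way with age, at 5.19, 16.7, 21.5, 17.1, 64.9 and 44.5 FPKM in Cux2 CPNs and 0.479, 0.382, 0.521, 0.719, 5.10 and 4.49 FPKM in Tle4 CThPNs. Igfbp5, which binds insulin-like growth factors, was highest at P7, with 10.4, 39.1, 42.0, 48.8, 16.5 and 14.7 FPKM in Cux2 CPNs and 1.94, 3.30, 4.15, 3.73, 4.45 and 5.88 FPKM in Tle4 CThPNs. Its difference narrowed late, with a change of -0.93 in Cux2 CPNs and 0.55 in Tle4 CThPNs. Tac1, the precursor of the neuropeptides substance P and neurokinin A, had 2.66, 5.27, 7.74, 25.1, 7.78 and 9.63 FPKM in Cux2 CPNs, with its high point at P7, and stayed below 1 FPKM in Tle4 CThPNs. The remaining secreted member, 1190002N15Rik (now Dipk2a), lay between 7.18 and 22.8 FPKM in Cux2 CPNs and between 1.26 and 3.78 FPKM in Tle4 CThPNs. Over the 7 genes of this group the median of the mean class difference was 3.15, the highest of the 6 role groups.

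Of 26 listed genes of the activin, BMP and TGF-beta pathway, 3 are members: the ligand chain Inhba, Fstl4 and the effector Smad3. Of the 26, 10 were higher in Cux2 CPNs at every age, where the 3 members are by selection, and 4 were higher in Tle4 CThPNs at every age (17.1% and 12.3% of all listed genes were). The median of their mean class differences was 0.27, against 0.04 for all listed genes. Smad3, which carries activin and TGF-beta signals to the nucleus, had 14.5, 15.1, 8.24, 2.11, 19.2 and 13.5 FPKM in Cux2 CPNs and 2.30, 1.35, 0.816, 0.404, 5.06 and 3.80 FPKM in Tle4 CThPNs. Both classes were lowest at P7. The other SMAD genes of the table lay close to equality, with mean differences of 0.31 for Smad4, 0.24 for Smad2, -0.11 for Smad5, -0.32 for Smad1 and -0.45 for the inhibitory Smad7. Follistatin, the secreted activin antagonist encoded by Fst, was higher in Cux2 CPNs at every age, with differences of 1.89, 2.65, 2.64, 0.14, 1.10 and 0.76, but it fell short of the rule at P7 and P48. The 7 receptor genes of the list ran in mean difference from -0.42 for Bmpr1a to 0.84 for Acvr1, and Bmpr1b went from 1.61 at E18.5 to -0.87 at P48.

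Guidance and adhesion receptors were the second largest role group, with 13 members. Pvrl3, the adhesion molecule nectin-3, had 77.8, 109, 118, 102, 41.0 and 30.8 FPKM in Cux2 CPNs and 10.3, 7.74, 4.56, 4.07, 6.77 and 2.75 FPKM in Tle4 CThPNs. It was highest at P3, and the other nectin in the table, Pvrl2, was on the opposite side with a mean difference of -0.54. Vstm2l, an immunoglobulin-domain protein, went from a low level at E18.5 to a maximum at P7 in Cux2 CPNs, with 15.3, 44.3, 79.1, 161, 101 and 81.8 FPKM, against 2.35, 3.65, 4.62, 9.04, 6.71 and 4.72 FPKM in Tle4 CThPNs. Both of the netrin receptors Unc5c and Unc5d are members, while Unc5a had a mean difference of -0.17. Unc5d was at 20.4, 7.83, 8.38, 13.9, 17.96 and 16.1 FPKM in Cux2 CPNs and at 1.81, 1.13, 0.592, 0.851, 1.46 and 0.640 FPKM in Tle4 CThPNs. Unc5c was lower, from 6.15 to 13.1 FPKM in Cux2 CPNs and from 0.500 to 1.94 FPKM in Tle4 CThPNs. Ntng2, which encodes netrin-G2, a membrane-anchored relative of netrins, stayed under 1 FPKM in Tle4 CThPNs and ran from 3.82 to 13.6 FPKM in Cux2 CPNs.

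The Nogo receptor homologs Rtn4rl1 and Rtn4rl2, which bind myelin and matrix inhibitors of axon growth, are both members. Rtn4rl1 had 8.36, 21.7, 28.1, 43.0, 79.2 and 58.9 FPKM in Cux2 CPNs and 3.56, 2.84, 2.83, 2.07, 3.03 and 1.36 FPKM in Tle4 CThPNs. Its class difference was 1.04, 2.57, 2.92, 3.84, 4.31 and 4.67 at the 6 ages, so the gap was near the minimum of the rule at E18.5 and larger at each later age. No other member widened more from early to late (1.90). Rtn4rl2 went from a difference of 1.12 at E18.5 to 2.97 at P21. Rtn4r, the Nogo receptor itself, had a mean difference of 0.20 with values on both sides of 0. Ajap1, a protein of adherens junctions, also widened (1.59): Cux2 CPNs had 9.29, 25.0, 26.9, 44.5, 47.7 and 38.7 FPKM while Tle4 CThPNs had 3.45, 6.82, 8.42, 11.2, 3.89 and 3.70 FPKM, with the Tle4 values coming down after P7. Sorcs1, a sorting receptor of the VPS10 family, narrowed by 1.51, since the Tle4 values went up late. It had 8.31, 16.1, 18.2, 29.6, 23.4 and 17.2 FPKM in Cux2 CPNs and 1.45, 0.795, 0.767, 1.19, 5.72 and 6.24 FPKM in Tle4 CThPNs.

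The remaining 4 guidance and adhesion members are named for their role. Boc, a co-receptor for Sonic hedgehog, varied little in Cux2 CPNs, from 12.8 to 20.4 FPKM, with 1.39 to 4.78 FPKM in Tle4 CThPNs. Plxdc2, a transmembrane protein with a plexin domain, was highest at P7 in Cux2 CPNs (24.7 FPKM). Thsd7a, with thrombospondin repeats, was at most 0.525 FPKM in Tle4 CThPNs and reached 14.0 FPKM in Cux2 CPNs at P7. The atypical cadherin Fat1 was among the lowest members, from 2.49 to 10.0 FPKM in Cux2 CPNs. Set against a wider list of 43 immunoglobulin-type guidance and adhesion genes in the table, 4 are members (Unc5c, Unc5d, Pvrl3 and Ntng2), 2 passed the mirror rule for Tle4 CThPNs, 8 were higher in Cux2 CPNs at every age and 6 higher in Tle4 CThPNs at every age. The 8 include the 4 members, which are there by selection (over all listed genes the shares were 17.1% and 12.3%).

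**Figure D3:**
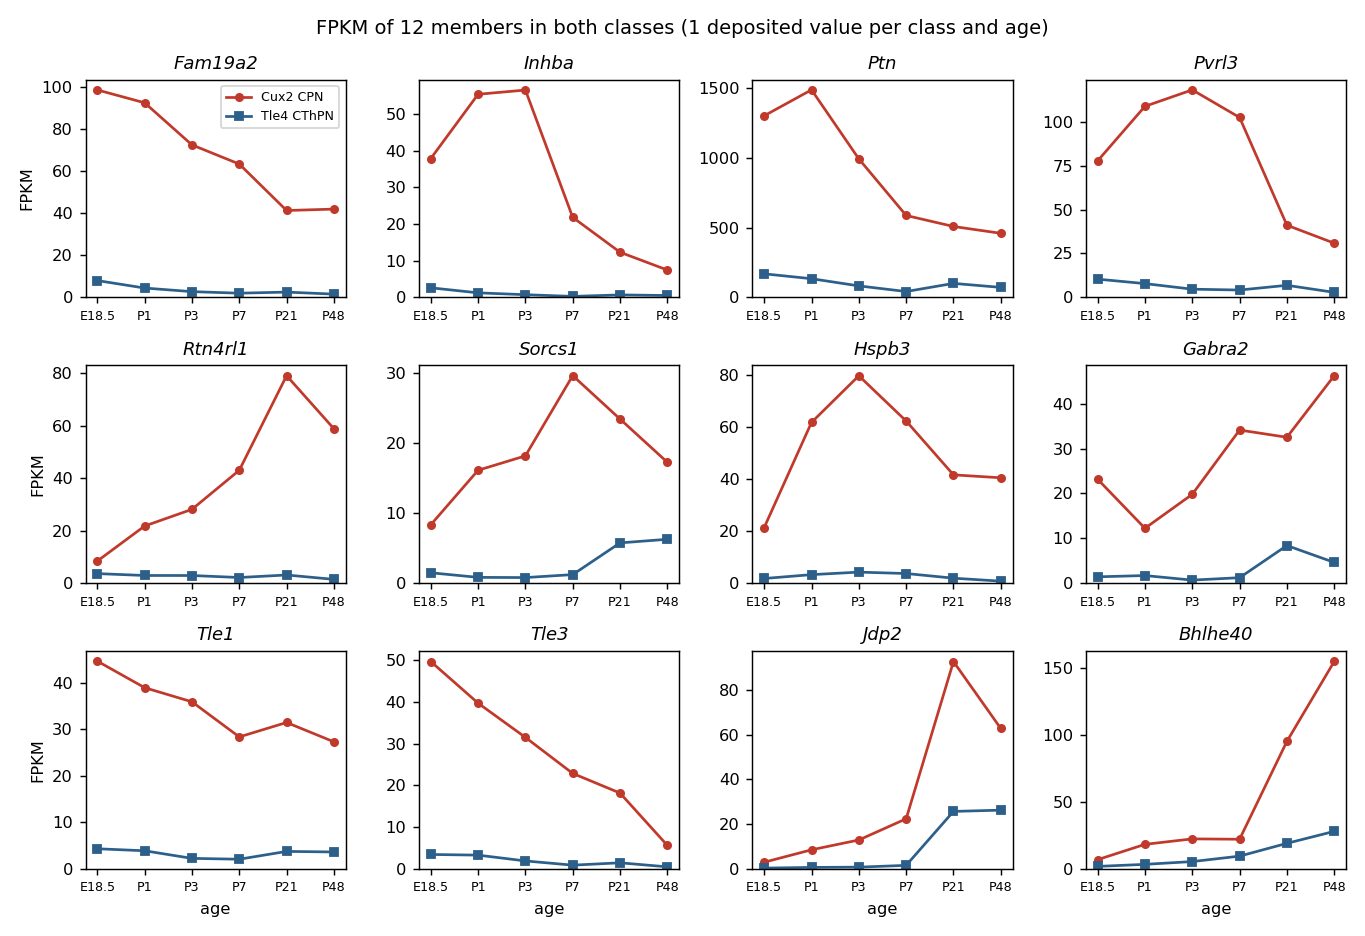
FPKM (y axis, from 0) of 12 members at 6 equally spaced ages in Cux2 CPNs (red circles) and Tle4 CThPNs (blue squares), 1 deposited value per point and no error. Fam19a2 and Tle3 went down with age, Rtn4rl1 went up in Cux2 CPNs only, Sorcs1 and Gabra2 gained Tle4 signal late, and Jdp2 went up in both classes.

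Of the 8 receptor, channel and synaptic members, 4 rose with age in Cux2 CPNs, against 17.1% of all listed genes. A rise or fall means here a change of at least 1 in log2(FPKM + 1) between the mean of E18.5, P1, P3 and P7 and the mean of P21 and P48. Cacng3, a gamma subunit that assists AMPA receptor trafficking, rose by 2.83 in Cux2 CPNs and by 3.42 in Tle4 CThPNs, with 12.5, 13.8, 18.3, 50.0, 191 and 116 FPKM in the former and 2.04, 3.21, 6.90, 15.4, 78.9 and 57.0 FPKM in the latter. It is 1 of the 3 members closest to the threshold. Rims3, a presynaptic RIM protein, rose by 2.03 in Cux2 CPNs, where it had 10.4, 22.5, 17.0, 14.4, 55.1 and 79.8 FPKM, and its Tle4 values were 3.21, 5.61, 4.59, 6.03, 6.37 and 13.8 FPKM. Grm2, a presynaptic metabotropic glutamate receptor, and Gpr153, an orphan receptor, rose by 1.26 and 1.62 in Cux2 CPNs. Neither rose by 1 in Tle4 CThPNs.

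Gabra2, the alpha 2 subunit of the GABA-A receptor, had 23.2, 12.2, 19.8, 34.2, 32.6 and 46.3 FPKM in Cux2 CPNs and 1.37, 1.65, 0.631, 1.17, 8.36 and 4.59 FPKM in Tle4 CThPNs. Gabra4, its nearest listed neighbour on chromosome 5, was also higher in Cux2 CPNs at every age (mean difference 1.74), whereas Gabra3 was higher in Tle4 CThPNs at every age (mean difference -0.90). Cacna2d1, the alpha-2-delta subunit that binds gabapentin, ran from 17.4 to 40.1 FPKM in Cux2 CPNs and from 3.88 to 13.3 FPKM in Tle4 CThPNs. Shank2, a postsynaptic scaffold, had the smallest mean difference of this group (1.42), and both Shank1 and Shank3 were also higher in Cux2 CPNs at every age. Shisa6, an auxiliary protein of AMPA receptors, fell in both classes, from 37.9 FPKM at P1 to 4.86 FPKM at P48 in Cux2 CPNs and from 11.4 to 0.429 FPKM in Tle4 CThPNs. In the wider lists, 1 of 32 ionotropic receptor genes and 2 of 30 voltage-gated and TRP channel genes outside the potassium family are members. The channel list had 0 genes and the ionotropic list 2 genes past the mirror rule for Tle4 CThPNs.

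Nuclear factors formed a group of 12 with 4 rises and 4 falls in Cux2 CPNs, where 17.1% of all listed genes rose and 13.8% fell. Both Tle1 and Tle3, the Groucho co-repressors related to the gene that labels the CThPNs, are members. Tle1 had 44.7, 39.0, 35.9, 28.4, 31.5 and 27.3 FPKM in Cux2 CPNs and 4.29, 3.86, 2.22, 2.04, 3.72 and 3.60 FPKM in Tle4 CThPNs. Tle3 had 49.7, 39.7, 31.5, 22.8, 18.1 and 5.58 FPKM in Cux2 CPNs, with 3.41, 3.25, 1.86, 0.848, 1.41 and 0.444 FPKM in Tle4 CThPNs. Tle4 was on the other side at every age, with a mean difference of -4.18 (from -5.02 to -3.22), and the short relative Aes had -0.39, while Tle2 and Tle6 changed sign with age. Within this 1 family, 2 genes passed the ratio rule and 1 the mirror rule.

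Of the other nuclear members, the bHLH factor Neurod1 widened by 1.23: it had 8.22, 3.12, 4.64, 7.66, 11.9 and 12.4 FPKM in Cux2 CPNs and stayed under 1 FPKM in Tle4 CThPNs. Its relatives Neurod2 and Neurod6 lay near equality, at -0.13 and 0.12. Btbd3, a BTB-domain protein known for orienting dendrites, rose in both classes, with 7.22 FPKM in Cux2 CPNs at the youngest age and 37.6 at the oldest, and 1.85 and 6.49 FPKM in Tle4 CThPNs. Zbtb34, a BTB zinc finger protein, fell in both. Mkx, a homeobox factor, and Prdm8, a PR-domain factor, are named for their role: they ran from 8.58 to 17.0 FPKM and from 25.6 to 42.0 FPKM in Cux2 CPNs, and neither changed by 1 there.

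Jdp2, an AP-1 family repressor, had the largest rise in both classes, 2.89 in Cux2 CPNs and 3.98 in Tle4 CThPNs. Cux2 CPNs had 2.90, 8.44, 12.8, 22.3, 92.6 and 62.7 FPKM and Tle4 CThPNs 0.275, 0.569, 0.694, 1.49, 25.6 and 26.2 FPKM. Bhlhe40, an activity-responsive bHLH repressor of the circadian system, rose by 2.86 in Cux2 CPNs to 154.6 FPKM at P48 and by 2.20 in Tle4 CThPNs to 27.9 FPKM. A list of 11 genes induced by tissue dissociation moved at the same ages. Its summed FPKM was 100.2, 141, 111, 115, 1408 and 2586 in Cux2 CPNs and 128, 186, 169, 155, 1583 and 1746 in Tle4 CThPNs. None of these 11 genes passed the 2-fold rule in either direction, and 2 of them, Jun and Junb, were higher in Tle4 CThPNs at every age. The part of dissociation in the rises of Jdp2 and Bhlhe40 was not tested.

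Tac1 is a marker of cortical interneurons, and 2 members are on a list of 21 interneuron markers in the table. Gad1, which makes GABA and was left out of the set by its definition, had 19.0, 18.53, 28.0, 34.2, 18.1 and 27.8 FPKM in Cux2 CPNs and 0.971, 1.33, 1.15, 0.998, 6.95 and 2.00 FPKM in Tle4 CThPNs. Lhx6, another excluded interneuron gene, had 114, 67.8, 68.9, 27.7, 2.23 and 3.99 FPKM in Cux2 CPNs and 2.95, 2.16, 1.40, 1.04, 0.279 and 0.218 FPKM in Tle4 CThPNs. The list had 8 genes past the ratio rule, 15 higher in Cux2 CPNs at every age and a median mean difference of 2.09. Over all listed genes, 0.911% passed the rule, 17.1% were higher at every age and the median was 0.04. Its summed FPKM ran from 663 to 1075 in Cux2 CPNs and from 175 to 1486 in Tle4 CThPNs, where Npy alone accounted for most of the high early sums (1334 FPKM at E18.5). In Cux2 CPNs, Pvalb was listed at 0 at E18.5 and P1, while Gad1, Gad2 and Lhx6 were above 0 in every group. The part of interneurons in the values of Tac1 or any other member was not tested.

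The signalling, cytoskeletal and enzyme group held 17 members. Hspb3, a small heat shock protein, followed Fam19a2 in the height of its lowest ratio (8.24). It had 21.4, 61.9, 79.8, 62.4, 41.6 and 40.5 FPKM in Cux2 CPNs and 1.71, 3.19, 4.16, 3.63, 1.83 and 0.682 FPKM in Tle4 CThPNs. The related Cryab passed the mirror rule (mean difference -2.08), and Hspb2 was higher in CThPNs at every age. Rasgrf2, a calcium-dependent activator of Ras, was highest at P7 in both classes, with 18.9, 35.7, 42.6, 60.9, 55.9 and 36.9 FPKM in Cux2 CPNs and 4.58, 4.38, 5.94, 10.0, 6.24 and 4.10 FPKM in Tle4 CThPNs. Its relative Rasgrf1 had a mean difference of 0.32. Shroom2, an actin-binding regulator of cell shape, was high in both classes, from 55.5 to 133 FPKM in Cux2 CPNs and from 11.4 to 31.0 FPKM in Tle4 CThPNs.

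Others of this group are named for their pattern or role, chosen after their values were seen. Fam84a (now Lratd1) fell in both classes, with 147.5 FPKM in Cux2 CPNs at the youngest age and 12.8 at the oldest, and 26.5 and 0.761 FPKM in Tle4 CThPNs. Prr16 was the only 1 of the 17 to rise in Cux2 CPNs (1.71), and it rose by 1.89 in Tle4 CThPNs. Lhfp narrowed by 1.09, with 25.7 FPKM in Tle4 CThPNs at P48 against 7.91 FPKM at P7. Vat1l fell in Cux2 CPNs, from 26.8 FPKM at P7 to 4.61 FPKM at P48. Further genes of the group, namely the G protein regulator Rgs3, the heparan sulfate enzyme Hs6st3, Ppp1r16b, the RNA-binding Rbm24, 3110047P20Rik (now Nwd2), 2510009E07Rik and the phosphatase Ppm1m, ranged from 2.46 to 44.1 FPKM in Cux2 CPNs and none of them changed by 1 there.

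A short gene model sets some values apart. Short transcripts hold few fragments, and 9 of the 122 placed genes with exons of up to 300 bases passed the ratio rule (7.38%), against 0.785% of genes over 1000 bases. The mirror rule was also passed more often by such short models, by 6 of the 122 (4.92%) against 0.909%. Members with such models are mt-Atp8 and 2610017I09Rik, and a further 2, H3f3c and Hspb3, have more than that but at most 1000 bases. For mt-Atp8, a mitochondrial ATP synthase subunit of 204 bases, the FPKM were 80.1, 146, 228, 179, 111 and 73.5 in Cux2 CPNs and 37.5, 26.7, 10.8, 13.9, 24.6 and 12.2 in Tle4 CThPNs. It overlaps mt-Atp6 by 43 bases on the same strand, and mt-Atp6 had a mean difference of 0.98 with Tle4 CThPNs higher at E18.5. The other mitochondrial genes ran from a mean difference of -1.66 for mt-Rnr1 to 0.96 for mt-Nd3, apart from mt-Atp6 and from mt-Ts1, which was listed at 0 in 10 of the 12 groups. H3f3c, an intronless copy of a histone H3.3 gene that the annotation lists as a pseudogene, can share reads with H3f3a and H3f3b, which had mean differences of 0.32 and 0.10. Its own difference is uncertain for that reason, and at P48 it was the smallest of any member (1.01).

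Of the members grouped here as non-coding RNAs, 9130024F11Rik is a long non-coding RNA in the annotation of the authors' build, which lists 2610017I09Rik as protein-coding. 2610017I09Rik, now Pantr1, starts 30.2 kb from Pou3f3 on chromosome 1, and that annotation gives it a model of only 198 exonic bases. Its FPKM were 964, 858, 723, 381, 225 and 166 in Cux2 CPNs and 134, 114, 99.4, 63.0, 105 and 63.3 in Tle4 CThPNs, so it fell in Cux2 CPNs and its class difference narrowed by 1.56. Pou3f3, left out by name and short of the rule at 4 ages, was higher in Cux2 CPNs at every age by 0.25 to 1.55. The other, 9130024F11Rik, had 68.7, 70.0, 56.8, 32.0, 22.0 and 22.9 FPKM in Cux2 CPNs and 23.9, 21.6, 19.2, 12.3, 7.19 and 5.81 FPKM in Tle4 CThPNs, with lower values at the late ages in both classes.

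In NCBIM37, the build used by the authors, all 59 members could be placed, on 19 chromosomes counting the mitochondrial genome, with 10 on chromosome 2, which holds 8.49% of all placed genes. Their nearest listed neighbour was higher in Cux2 CPNs at every age in 20 of 59 cases, against 17.1% of all listed genes, and the median of the neighbours' mean differences was 0.26. Members spanned a median of 83.8 kb of the genome, compared with 22.9 kb for the 9492 listed genes that could be placed, while the median exon length was similar (3971 and 3653 bases). Exons of some members overlap exons of another annotated gene, among them those of 9130024F11Rik, Tle1, Bhlhe40, Neurod1, Prdm8, Ntng2 and Fat1. Reads in such a stretch lie in both gene models, on the same strand for Ntng2, mt-Atp8 and 1 overlap of Neurod1, and on opposite strands, which the library kit does not mark, for the others.

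**Figure D4:**
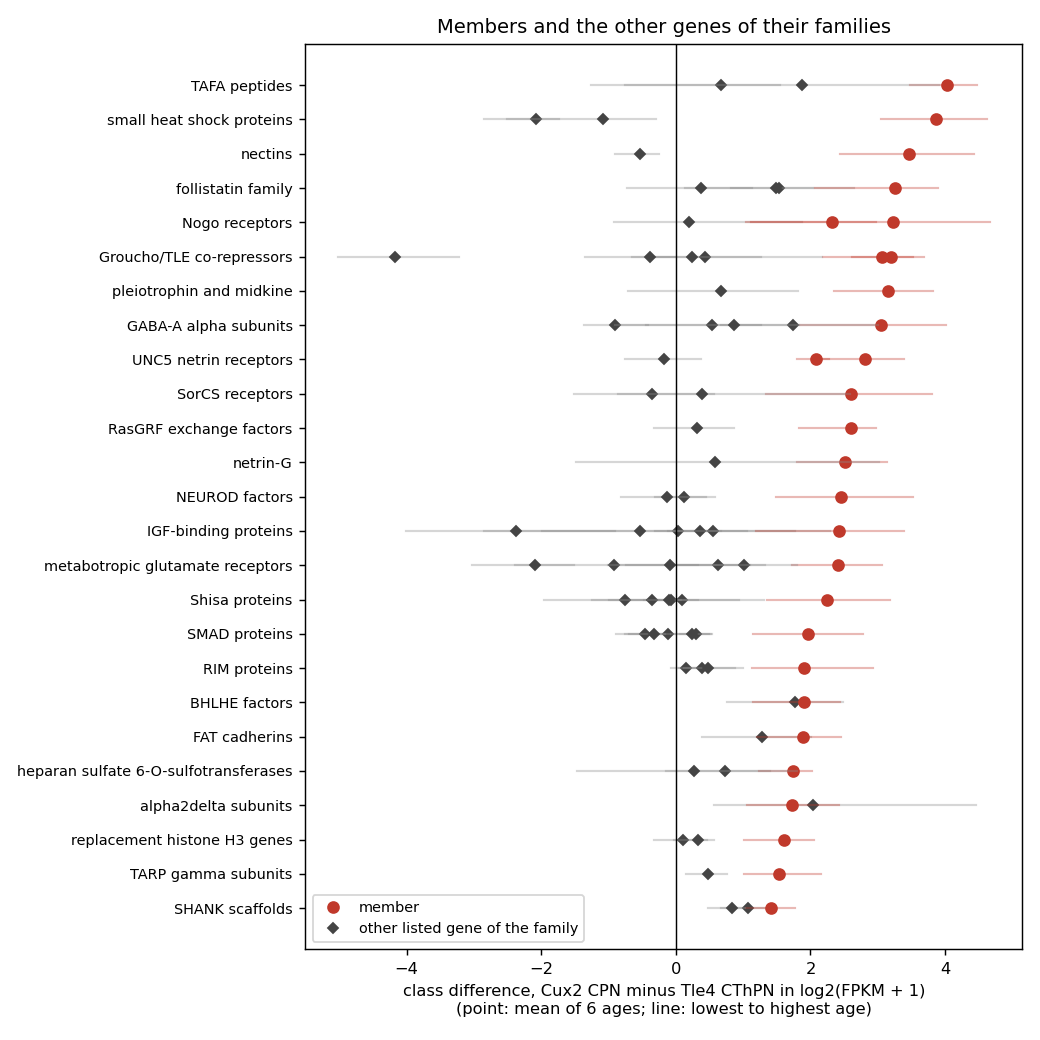
Mean class difference over 6 ages (points) with its lowest and highest age (lines), in log2(FPKM + 1), for gene families with a member described in the text (red circles) and at least 1 other listed gene (dark diamonds). Other family genes lie on both sides, farthest to the Tle4 CThPN side Tle4 (-4.18), Igfbp3 (-2.37), Grm8 (-2.09) and Cryab (-2.08), while every member lies on the Cux2 CPN side by selection.

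Relatives of the members were found on both sides. In 30 families, assigned after the members were known, 33 members had 59 other listed genes. Of these 59, 38 had a mean difference toward Cux2 CPNs (54.7% of all listed genes did) and 21 toward Tle4 CThPNs, 12 were higher in Cux2 CPNs at every age (over all listed genes, 17.1% were), 11 were higher in Tle4 CThPNs at every age (12.3% of all), and 3 passed the mirror rule, which 0.973% of all listed genes passed (Tle4, Cryab and the glutamate receptor Grm8). The relatives with the largest mean differences toward Cux2 CPNs were the calcium channel subunit Cacna2d3 (2.04), the TAFA peptide Fam19a1 (1.87), Bhlhe22 (1.77) and Gabra4 (1.74). Fam19a1 changed sign, from 3.91 at its highest age to -1.27 at its lowest.

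Change with age was read in each class separately, which the rule did not fix. In Cux2 CPNs, 12 members (20.3%) rose and 13 (22.0%) fell, against 17.1% and 13.8% of all listed genes. In Tle4 CThPNs, 9 members (15.3%) rose and 8 (13.6%) fell, against 15.0% and 11.7%. The class difference widened by at least 1 in 6 members (10.2%) and narrowed by at least 1 in 8 (13.6%), where 6.13% and 6.01% of all listed genes did so. With a pseudocount of 0.1 in place of 1, 14 members rose and 13 fell in Tle4 CThPNs, against 16.4% and 13.6% of all listed genes. With a change of at least 1.5 in place of 1, 7 members fell in Cux2 CPNs (7.04% of all listed genes), 3 fell in Tle4 CThPNs (5.46%), and the class difference widened in 2 (3.34%) and narrowed in 4 (3.33%). With 1 value per group none of these shares can be tested. A rise in both classes was seen for 6 members and a fall in both for 6, none moved in opposite directions by 1 or more, and 29 changed by 1 in neither class. Over all listed genes these shares were 11.7%, 8.52%, 0.307% and 63.0%. Across genes, which are not independent, the changes in both classes had a Pearson r of 0.77 for the 59 members and 0.79 for all 9767 genes. Between neighbouring ages the median absolute step of the members was larger than that of all listed genes at every step in each class, as from E18.5 to P1 in Cux2 CPNs (0.56 against 0.23) and from P3 to P7 in Tle4 CThPNs (0.45 against 0.20).

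**Figure D5:**
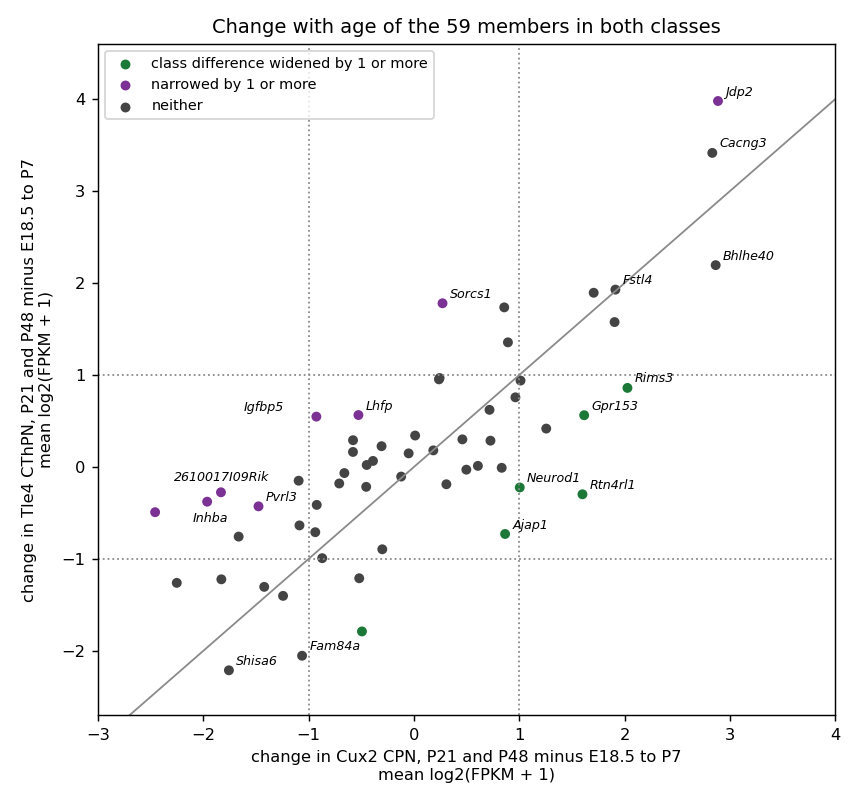
Change from early ages (E18.5 to P7) to late ages (P21 and P48) in mean log2(FPKM + 1), in Cux2 CPNs (x axis) and Tle4 CThPNs (y axis), 1 point per member; the solid line marks equal change and dotted lines mark changes of 1. Points lie along the line, with points such as Rtn4rl1, Ajap1, Neurod1, Rims3 and Gpr153 (green, widened) below it and points such as Inhba, 2610017I09Rik, Sorcs1, Igfbp5, Lhfp, Jdp2 and Pvrl3 (purple, narrowed) above it.

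The age at which members were highest in Cux2 CPNs had 9 to 11 members at each of the 6 ages, whereas 29.9% of all listed genes were highest at E18.5 and 4.70% at P3. In Tle4 CThPNs, 23 members (39.0%) were highest at E18.5, against 23.3% of all listed genes, and 1 at P3. Near the threshold, the members just inside were H3f3c, Cacng3 and Ppm1m with lowest ratios of 2.01, 2.02 and 2.05, and the genes just outside were Rpp25, Auts2 and Limch1 with 1.99, 1.98 and 1.96. For 10 members the lowest ratio was at least 4, and for 28 the highest was at least 8.

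The other lists gave few or no members. None of the listed astrocyte, oligodendrocyte lineage, microglia, endothelial and mural, blood, progenitor and cycling, or Cajal-Retzius markers in the table (10, 7, 6, 4, 4, 4 and 2 genes) is a member, and 0 passed either ratio rule. No meningeal fibroblast marker of the list is in the table. Among 11 glutamatergic neuron markers 2 are members, Neurod1 included. Of 21 Wnt pathway genes 0 passed the ratio rule for Cux2 CPNs and 1 passed for Tle4 CThPNs, and of 7 retinoid pathway genes 0 passed either. Since 0.911% and 0.973% of all listed genes passed these rules, nothing can be read from a count of 0 in lists of this size.

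The promoters of 44 members are in a RefSeq table of mouse promoters (build GRCm38.p6), each 250 bases before to 50 bases after a start site. The letters of 5 motifs were sought on both strands. Shares are of genes with a promoter entry, and some genes have more than 1 promoter. The E-box CAGATG, a form that NEUROD factors can bind, was found for 6 of the 44 members (13.6%). It was found for 13.4% of listed genes and 19.2% of all genes with an entry. AGGTCA, the core that ROR receptors recognize, was in 6 (13.6%, against 14.1% and 18.1%), the TATA box TATAAA in 4 (9.09%, against 8.32% and 15.7%) and the homeodomain core TAATTA in 2 (4.55%, against 3.00% and 6.12%). The POU octamer ATGCAAAT was in 0 (against 1.44% and 1.97%). The members' shares were thus close to those of listed genes. A match describes letters in this window and not a bound site.

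The stretches upstream of the start are shown for the 2 leading secreted genes, for the guidance and adhesion member Ntng2 and for the synaptic gene Rims3, with the motif in capitals (E-box, or TATA box for Inhba) and 5′ to 3′ on the gene's strand.
Fam19a2 at chr10:123264017-123264074, plus strand: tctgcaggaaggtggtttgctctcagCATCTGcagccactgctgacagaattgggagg
Inhba at chr13:16011734-16011791, plus strand: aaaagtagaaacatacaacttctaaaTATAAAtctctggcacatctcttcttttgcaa
Ntng2 at chr2:29248108-29248165, minus strand: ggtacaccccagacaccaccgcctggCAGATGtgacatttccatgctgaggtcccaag
Rims3 at chr4:120854715-120854772, plus strand: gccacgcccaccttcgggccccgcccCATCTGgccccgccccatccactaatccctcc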

How the data were processed

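RNA-seq was made from sorted Cux2 CPNs and Tle4 CThPNs at 6 ages, 2 libraries for each of 12 groups. The authors trimmed reads with Trimmomatic, aligned them with TopHat2 to NCBIM37 (mm9) and computed FPKM with Cuffdiff, and the deposited table holds 1 FPKM per gene and group for 9767 genes, each of at least 10 FPKM in some group. Libraries were made from pools of sorted cells with an amplifying kit that does not mark strand, and the depth of each library cannot be read from FPKM.

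The deposited FPKM were put on the log2(FPKM + 1) scale with pandas 2.3.3 and numpy 2.4.6 under Python 3.11.15, and plotted with matplotlib 3.10.9. Members were selected on the class ratio, with a pseudocount of 1. Early was the mean of the 4 ages to P7 and late the mean of the 2 later ages, and a change was called at a log2 difference of 1. With 1 value per group no test could be made. The computation was tested on simulated data. Positions came from the GENCODE annotation of NCBIM37 and promoters from RefSeq (GRCm38.p6), in which 15 members had no entry.

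The members, lists, families and roles were chosen with earlier results of these data known. Named by rule were 37 members: the 10 with the largest lowest difference, the 6 with the largest rise, the 6 with the largest fall and the 6 highest in Cux2 CPNs, the 5 that widened and the 5 that narrowed most, the 3 next to the threshold, and those on a list. The other 22 are named by role or pattern. Results for 3 of the 59 are not reported here by gene, though the counts include them. Alternatives were pseudocounts of 0.1 and 5, ratios of 1.5 and 3, age differences of 1.5, median-ratio scaling, a minimum of 10 FPKM in Cux2 CPNs, early ages without P7 and leaving out an age.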

Additional observations from a re-analysis of the deposited data

How the results depend on the processing

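No paired analysis was possible because each group has a single pooled column without replicate numbers, and leaving out a replicate was not possible for the same reason. The number of members depends on the cutoffs: 19 genes passed with a pseudocount of 5, 164 with a ratio of 1.5, 18 with a ratio of 3 and 28 with at least 10 FPKM in Cux2 CPNs at every age. With median-ratio scaling 53 of the 59 were kept. With a pseudocount of 0.1 all 59 were kept, which was fixed in advance. A smaller pseudocount can only raise the ratio of a gene that is higher in Cux2 CPNs. A difference of 1.5 left 7 falls in Cux2 CPNs, 3 falls in Tle4 CThPNs, 2 widened and 4 narrowed differences. A pseudocount of 0.1 gave 14 rises and 13 falls in Tle4 CThPNs. The members' median class difference at the 6 ages was 2.42, 2.67, 2.85, 3.01, 2.45 and 2.73 with a pseudocount of 0.1, and 1.75, 2.22, 2.34, 2.54, 2.07 and 2.22 with median-ratio scaling, lowest at E18.5 and highest at P7 under both. Of 286 gene values of size 1 or more, 7 fell under 1 in some alternative and 0 changed direction. A change of pseudocount cannot reverse the sign of a class difference, so the count of 0 was partly fixed in advance. The precision of low FPKM is unknown, because no read numbers come with them.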
